A study of Mus musculus with 2 samples.

Results

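The genes for the aminoacyl-tRNA synthetases were examined by RNA-seq in E14 cells, a mouse embryonic stem cell (ESC) line, and in E14-Sox2TA/WT cells. The 36 members were taken by symbol from a list of 20 cytosolic and 16 mitochondrial enzymes, the latter with symbols that end in 2, and all 36 were found among the 24532 genes of the table. E14 cells are wild type for Sox2. E14-Sox2TA/WT cells come from E14 and carry the T258A change, threonine 258 to alanine, in 1 allele of Sox2. The edit used CRISPR/Cas9 with a DNA donor of 1 strand, and the clones grew from single sorted cells. It removes a site at which Sox2 carries O-GlcNAc, a single sugar attached to serine or threonine. Per the study's methods, E14 cells were cultured with serum and leukemia inhibitory factor (LIF), whereas the edited clones were selected and normally kept in serum and LIF with 2i, a pair of kinase inhibitors (PD0325901 against Mek and CHIR99021 against Gsk3), which was removed before the experiments. Each genotype had 1 library, so genotype, clone and culture history cannot be told apart, and no difference has a replicate check or a p-value. In bulk RNA, fewer expressing cells and less RNA per cell cannot be told apart. The 95% intervals given below cover the counting of reads only.

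Aminoacyl-tRNA synthetases join each amino acid to its transfer RNA, the step that sets the genetic code for the ribosome. Cytosol and mitochondria translate separately, and most amino acids have a synthetase gene for each compartment, whereas Gars (glycine) and Kars (lysine) each serve both. In the cytosol, a set of these enzymes is held in the multi-tRNA synthetase complex and the others work outside it. Many cytosolic synthetase genes are textbook targets of Atf4, the transcription factor that is translated when amino acids run short and that binds C/EBP-ATF composite elements in their promoters.

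The libraries held 60263536 counted reads in E14 and 44609228 in E14-Sox2TA/WT cells, of which 579468 (0.962%) and 329525 (0.739%) fell on the 36 genes. The member with the fewest reads was Pars2, with 504 and 363. All 6 ESC markers examined (Pou5f1, Nanog, Sox2, Zfp42, Esrrb and Tdgf1) were expressed, at levels in TPM (transcript abundance scaled for length and library size) from 289.6 to 1725 in E14 and from 251.3 to 1759 in E14-Sox2TA/WT cells. Of these 4 were lower in E14-Sox2TA/WT cells, Nanog most (TPM 526.9 and 251.3, log2 ratio -1.07), and the median log2 ratio was -0.28. Of 6 fibroblast markers, Postn and Dcn had no reads in either library and Thy1 was lower (TPM 40.1 and 11.4). The other 3 were at a TPM of at most 2.95 and had higher values in E14-Sox2TA/WT cells, namely Col3a1 (0.080 and 1.28), Col1a2 (0.26 and 0.98) and Col1a1 (2.66 and 2.95). The 5 primitive endoderm markers, each of which was lower in E14-Sox2TA/WT cells, summed to 37.4 and 9.70. The part of these marker shifts in the results below was not tested. Sox2 itself had a TPM of 372.5 in E14 and 274.2 in E14-Sox2TA/WT cells, which does not check the labels, since the edit changes a codon and not the gene's dose.

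Cytosolic synthetase genes were expressed far above the mitochondrial ones. TPM ran from 115.2 (Wars, tryptophan) to 560.3 (Gars) over the 20 cytosolic genes in E14 and from 90.1 (Wars) to 673.8 (Kars) in E14-Sox2TA/WT cells. The 16 mitochondrial genes ran from 3.72 (Wars2) to 238.2 (Lars2, leucine) in E14 and from 4.80 (Wars2) to 127.3 (Lars2) in E14-Sox2TA/WT cells. Lars2 stood apart from the other mitochondrial genes in E14, the next being Tars2 (threonine) at 101.2. The summed TPM of the cytosolic genes was 5482 in E14 and 4726 in E14-Sox2TA/WT cells, or 86.2% of the E14 level. The mitochondrial genes summed to 726.2 and 614.3, or 84.6%, but without Lars2 the sums were 488.0 and 487.0, or 99.8%.

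**Figure D1:**
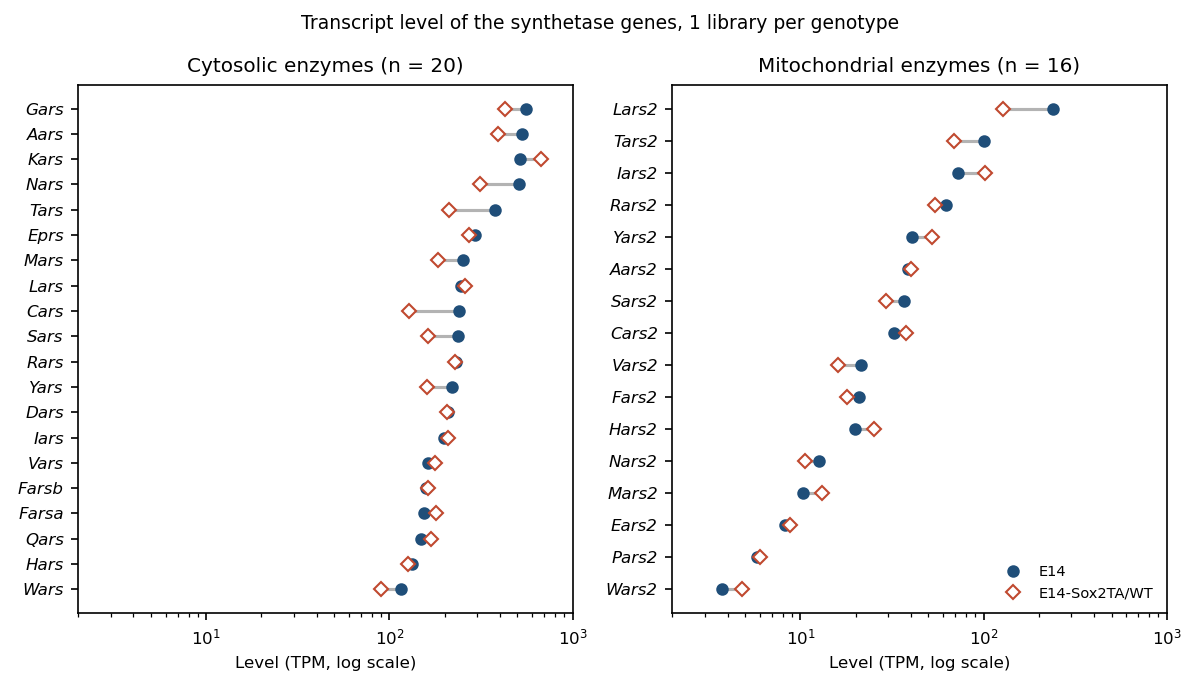
TPM of each synthetase gene on a log axis, with E14 as filled circles and E14-Sox2TA/WT as open diamonds (1 library each, no error bars), ordered by the E14 level. The 20 cytosolic genes lie at or above 90.1, while most of the 16 mitochondrial genes lie lower, and the widest gaps to the left belong to Cars, Tars, Nars and Lars2.

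The comparison of compartments gave no stable separation. The log2 ratio of TPM (E14-Sox2TA/WT over E14) had a median of -0.097 over the cytosolic genes (-0.13 to -0.062, the medians of the members' interval bounds) and of 0.055 over the mitochondrial genes (-0.084 to 0.16). The 9094 genes that reached a TPM of 10 in either library, which is the filter of the study, had a median of 0.085. The difference between the compartments, cytosolic minus mitochondrial, was -0.15 over all members, but it was 0.12 when only the 33 members past the filter were kept, which removes Ears2, Pars2 and Wars2, and again -0.15 with members at a mean TPM of at least 20. The mitochondrial median was below 0 with FPKM (-0.088), counts scaled to the library sum (-0.075) and centring on all genes (-0.029), and the cytosolic median was -0.24 with FPKM. Within each compartment the genes spread more widely than that, from -0.90 (Cars) to 0.39 (Kars) in the cytosol and from -0.90 (Lars2) to 0.49 (Iars2) in the mitochondria.

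None of the 36 genes differed more than 2-fold in TPM, the threshold of the study, beside 8.24% of all genes past the filter. With FPKM 2 did, Cars (log2 ratio -1.04) and Lars2 (-1.05), and the share of all genes past that threshold with FPKM was not computed. More than 1.5-fold lower were 3 cytosolic genes (Cars, Tars and Nars) and 1 mitochondrial gene (Lars2), beside 10.5% of all genes past the filter and 6.81% of the 1733 genes whose mean TPM was 100 or more, a level nearer to that of the cytosolic members. These 4 of 36 genes were a share close to that of all genes past the filter. No member was more than 1.5-fold higher, beside 14.2% of all genes past the filter. The counting interval lay wholly below 0 for 11 of 20 cytosolic and 7 of 16 mitochondrial genes, beside 35.2% of all genes past the filter and 37.3% of those with the higher mean TPM. It lay wholly above 0 for 6 and 6 genes, beside 50.2% and 53.1%. A ratio below 0 of any size was found for 13 cytosolic and 7 mitochondrial genes, beside 42.7% of all genes past the filter. Direction was also compared under 6 other scalings of the libraries, removal of a GC and length trend included. It was kept by 11 lower and 3 higher cytosolic genes, and by 6 lower and 5 higher mitochondrial genes. Most of these scalings move all genes by nearly the same amount, so they are not independent checks. The share of all genes that kept their direction was not computed.

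**Figure D2:**
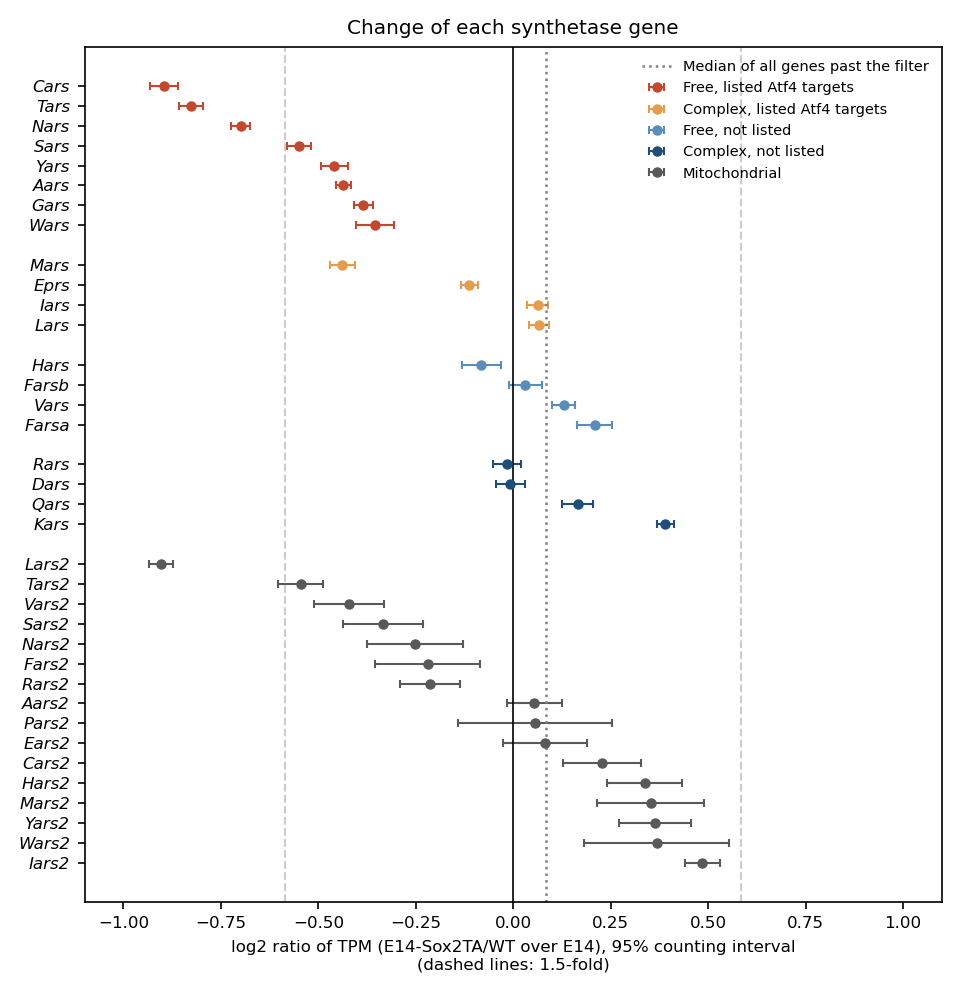
The log2 ratio of TPM (E14-Sox2TA/WT over E14) of each of the 36 genes with its 95% counting interval, grouped by membership in the multi-tRNA synthetase complex, by a list of Atf4 targets and by compartment, with the median of all genes past the filter as a dotted line. The 8 free enzymes on the list lie between -0.90 and -0.35, whereas the 8 cytosolic genes off the list lie between -0.081 and 0.39. The 4 listed enzymes of the complex lie between -0.44 and 0.065.

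The cytosolic genes were also compared by a list of known Atf4 targets. Of the 12 listed genes 10 were lower in E14-Sox2TA/WT cells, beside 42.7% of all genes past the filter. The listed genes had a median log2 ratio of -0.44 (-0.46 to -0.41), beside 0.085 for all genes past the filter. The 8 other cytosolic genes had a median of 0.080 (0.044 to 0.12), with 3 lower and 5 higher. The difference of the medians was -0.52. The ranges overlapped, with listed genes from -0.90 (Cars) to 0.065 (Lars) and the others from -0.081 (Hars) to 0.39 (Kars). The summed TPM of the listed genes was 74.4% of the E14 level, that of the others 112.2%. The list was written from general knowledge when lower levels of Atf4 targets in these libraries were already known, so its direction is not independent evidence. Atf4 had a TPM of 747.8 in E14 and 279.4 in E14-Sox2TA/WT cells (log2 ratio -1.42). Ddit3, an Atf4 target that encodes the stress factor Chop, had 95.2 and 15.5 (-2.62). The part of Atf4 in the levels of the listed genes was not tested.

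Among listed genes that encode free enzymes, the cysteine enzyme gene Cars was lowest. It had 23415 reads and a TPM of 238.5 in E14 against 8386 reads and 128.2 in E14-Sox2TA/WT cells, a log2 ratio of -0.90 (-0.93 to -0.86), or 1.86-fold lower. Tars, for threonine, had a TPM of 376.5 and 212.2 (31255 and 11808 reads, -0.83, -0.86 to -0.80). Nars, for asparagine, had 507.2 and 312.3 (42318 and 17460 reads, -0.70, -0.73 to -0.67). The share of all genes past the filter that lay at or below these ratios was 5.003%, 5.85% and 8.09%, respectively. The intervals of Cars and Tars did not meet, by a narrow margin, and that of Nars lay above both.

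The other free enzymes of the list were lower by less than 1.5-fold. Sars, for serine, had a TPM of 236.4 in E14 and 161.7 in E14-Sox2TA/WT cells (log2 ratio -0.55, -0.58 to -0.52). Yars, for tyrosine, had 220.3 and 160.3 (-0.46, -0.49 to -0.42). These were followed by 3 genes, 2 of which are among the most abundant synthetase transcripts. Aars, for alanine, had 527.4 and 389.9 (-0.44, -0.46 to -0.42), and Gars had 560.3 and 429.3 (-0.38, -0.41 to -0.36). Wars had 115.2 and 90.1 (-0.35, -0.40 to -0.31). The neighbours Yars and Aars, and Gars and Wars, overlapped in their counting intervals, so their order was not resolved at this depth. Aars shares 1326 exon bases on the same strand with Exosc6, which had 2458 and 2138 reads beside 61715 and 30571 for Aars.

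The listed genes of the complex behaved less evenly. Mars, for methionine, had a TPM of 251.2 in E14 and 185.3 in E14-Sox2TA/WT cells (log2 ratio -0.44, -0.47 to -0.41). Eprs, whose product charges both glutamate and proline tRNAs, had 292.5 and 270.4 (-0.11, -0.13 to -0.092). Mars thus lay with the free enzymes and Eprs close to no change. Iars, for isoleucine, had 198.8 and 207.7 (0.063, 0.037 to 0.090), and Lars, for leucine, had 245.8 and 257.1 (0.065, 0.040 to 0.091). Iars and Lars were the 2 listed genes that were not lower, but their sign changed with the scaling, to -0.081 and -0.078 at the lowest. Mars overlaps Ddit3 on the opposite strand by 68 exon bases, and the handling of strand in the counting is not stated. Reads of Ddit3 numbered 2592 and 284, beside 23255 and 11495 for Mars.

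Of the cytosolic genes off the list, Kars was highest. It had a TPM of 514.2 in E14 and 673.8 in E14-Sox2TA/WT cells (34278 and 29638 reads, log2 ratio 0.39, 0.37 to 0.41), which made it the most abundant synthetase transcript in the latter. Farsa, the alpha subunit of the phenylalanine enzyme, had 155.1 and 179.2 (0.21), while Farsb, its beta subunit, had 158.7 and 162.2 (0.031, -0.012 to 0.073). The levels of both subunits of this enzyme thus lay close together in each library. Qars, for glutamine, had 149.4 and 167.6 (0.17), and Vars, for valine, had 162.0 and 177.1 (0.13, or -0.015 at the lowest under another scaling). Dars, for aspartate (207.9 and 206.7, -0.0078), and Rars, for arginine (231.6 and 229.1, -0.016), had intervals that included 0. Hars, for histidine, had 133.1 and 125.8 (-0.081), with a sign that also changed with the scaling.

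Membership in the complex and in the list could be set side by side, a grouping chosen after the values were seen. The 8 listed free enzymes were all lower (median -0.50), and the 4 listed enzymes of the complex had a median of -0.025. The 4 unlisted free enzymes (Farsa, Farsb, Hars and Vars) had a median of 0.080 and the 4 unlisted enzymes of the complex (Dars, Kars, Qars and Rars) 0.079. Over all 8 enzymes of the complex the median was 0.028, and over all 12 free enzymes it was -0.41. Removing the GC and length trend brought this difference from 0.44 to 0.25. The 8 listed free genes did not overlap in log2 ratio with the remaining 12 cytosolic genes except for Mars. As the grouping followed the values, this separation is a description only. Wars, the highest of the 8, had 18.4% of all genes past the filter at or below its ratio. In summed TPM, the free enzymes stood at 74.6% of the E14 level and the enzymes of the complex at 105.1%.

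The promoters of these genes were searched for TGATGNAAN, the C/EBP-ATF composite element to which Atf4 binds, on both strands from 250 bases before to 50 bases after the transcription start. RefSeq promoters on GRCm38.p6 were found for 27 of the 36 members. Cars, Hars, Lars, Nars, Rars, Vars, Wars, Hars2 and Pars2 had no promoter in the reference and were not searched. The element occurred in 5 of 13 cytosolic genes with a promoter (38.5%) and in 0 of 14 mitochondrial genes. All 5 were among the 8 listed genes with a promoter. A gene with several promoters counted as a match if any of them held the element. Of the 27025 genes with a promoter of this length, 4.5% held a match, and of the 7297 that passed the TPM filter 2.36% did. A match is a description of letters and not of binding. Because the list is of known Atf4 targets and Atf4 binds this element, matches among listed genes are not separate support for the list.

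The 5 promoters with a match are shown because the genes that carry it include 4 of the lower cytosolic genes, with the 9 matched bases in capitals, and each is written 5′ to 3′ in the direction of its gene. They are Tars at chr15:11399609-11399908 (minus strand), Yars at chr4:129189653-129189952 (plus strand), Aars at chr8:111033592-111033891 (plus strand), Gars at chr6:55037751-55038050 (plus strand) and Iars at chr13:49681880-49682179 (plus strand).
Tars: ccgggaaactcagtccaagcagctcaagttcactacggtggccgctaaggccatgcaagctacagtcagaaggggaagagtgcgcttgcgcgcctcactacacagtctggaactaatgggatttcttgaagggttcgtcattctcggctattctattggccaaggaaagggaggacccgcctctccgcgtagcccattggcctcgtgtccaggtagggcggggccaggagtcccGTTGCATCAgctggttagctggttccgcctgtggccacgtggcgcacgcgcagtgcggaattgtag
Yars: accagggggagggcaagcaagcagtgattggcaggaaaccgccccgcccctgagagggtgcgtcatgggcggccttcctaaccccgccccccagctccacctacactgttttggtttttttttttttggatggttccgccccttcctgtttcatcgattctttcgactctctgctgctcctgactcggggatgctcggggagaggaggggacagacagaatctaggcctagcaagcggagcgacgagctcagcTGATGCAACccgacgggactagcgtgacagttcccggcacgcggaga
Aars: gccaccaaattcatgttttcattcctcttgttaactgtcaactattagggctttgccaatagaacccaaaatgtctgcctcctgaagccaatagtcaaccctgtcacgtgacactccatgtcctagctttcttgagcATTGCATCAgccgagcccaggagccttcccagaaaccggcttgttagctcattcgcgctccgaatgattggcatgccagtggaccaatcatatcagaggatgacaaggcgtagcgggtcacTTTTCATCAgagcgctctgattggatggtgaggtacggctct
Gars: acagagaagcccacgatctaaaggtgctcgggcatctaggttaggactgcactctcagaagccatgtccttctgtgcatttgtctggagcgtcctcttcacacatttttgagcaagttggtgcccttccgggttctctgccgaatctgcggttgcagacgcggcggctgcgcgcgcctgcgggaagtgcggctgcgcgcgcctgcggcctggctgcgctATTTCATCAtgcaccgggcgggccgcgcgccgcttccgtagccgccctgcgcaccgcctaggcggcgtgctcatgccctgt
Iars: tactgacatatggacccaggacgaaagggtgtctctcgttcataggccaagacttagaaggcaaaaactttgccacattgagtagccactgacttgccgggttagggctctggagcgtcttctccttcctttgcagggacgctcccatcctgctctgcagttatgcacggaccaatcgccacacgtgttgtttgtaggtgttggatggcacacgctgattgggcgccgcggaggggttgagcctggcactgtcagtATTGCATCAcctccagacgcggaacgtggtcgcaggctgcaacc

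The matches lay near the annotated start of the promoter shown, counted as base 1, which need not be the only start of the gene. For Aars (111033842) and Yars (129189903) this start lay downstream of the first annotated base of the gene (111027778 and 129189734). In Tars the antisense strand read TGATGCAAC from base -16 to -8, in Yars the sense strand read TGATGCAAC from base 4 to 12, and in Iars the antisense strand read TGATGCAAT from base 7 to 15. Gars held TGATGAAAT on the antisense strand from base -31 to -23. Aars held 2 matches on the antisense strand, TGATGCAAT from base -113 to -105 and TGATGAAAA from base 9 to 17. The 5 cytosolic genes with a match had a median log2 ratio of -0.44 (-0.83 to 0.063) and the 8 without one 0.012 (-0.55 to 0.39), so these ranges overlapped. Cars, Hars, Lars, Nars, Rars, Vars and Wars were not searched and are in neither group. Iars carried a match without a lower level. Sars, Mars and, by less, Eprs (log2 ratio -0.11) were lower without a match in this window.

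**Figure D3:**
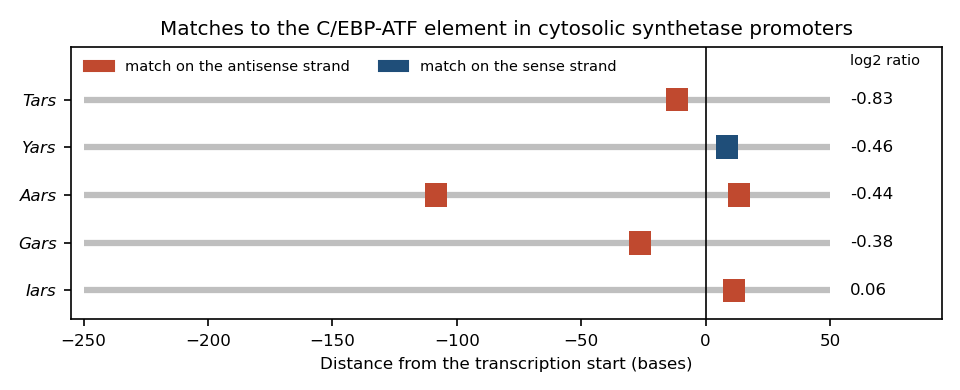
Position of the matches to the C/EBP-ATF element in the 5 cytosolic synthetase promoters that hold one. Bases are counted from the annotated start of each promoter (vertical line), with the log2 ratio of each gene at the right. Of the 6 matches 5 lie within 31 bases of the start and 1 lies 113 bases before it in Aars.

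The promoters of Kars, the highest cytosolic gene in ratio (chr8:112011305-112011604, minus strand), and of Lars2, the lowest mitochondrial gene (chr9:123366677-123366976, plus strand), are shown for contrast and hold no match.
Kars: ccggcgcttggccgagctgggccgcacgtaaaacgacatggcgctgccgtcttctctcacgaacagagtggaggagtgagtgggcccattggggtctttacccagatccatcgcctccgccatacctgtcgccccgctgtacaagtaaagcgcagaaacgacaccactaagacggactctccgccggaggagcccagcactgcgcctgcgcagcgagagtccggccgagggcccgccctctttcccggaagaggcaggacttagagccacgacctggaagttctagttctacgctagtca
Lars2: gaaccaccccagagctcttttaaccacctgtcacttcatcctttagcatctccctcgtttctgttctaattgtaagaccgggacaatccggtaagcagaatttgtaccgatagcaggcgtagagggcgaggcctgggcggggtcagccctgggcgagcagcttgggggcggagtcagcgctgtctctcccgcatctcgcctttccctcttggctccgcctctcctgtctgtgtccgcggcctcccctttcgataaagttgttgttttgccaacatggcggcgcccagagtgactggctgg

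Among the mitochondrial genes, Lars2 differed most. It had 29420 reads and a TPM of 238.2 in E14 against 10896 reads and 127.3 in E14-Sox2TA/WT cells, a log2 ratio of -0.90 (-0.94 to -0.87), or 1.87-fold lower. In E14 its level was close to that of Lars (245.8), the cytosolic gene for the same amino acid, a ratio of 1.03 between the genes that was 2.02 in E14-Sox2TA/WT cells. Rn45s, the precursor of ribosomal RNA, which was looked up after the values of Lars2 were seen, had a TPM of 1251 and 702.5 (log2 ratio -0.83), and its part in the level of Lars2 was not tested. Over the other pairs the E14 level of the cytosolic gene was at least 2.74 times that of the mitochondrial gene. Tars2 had a TPM of 101.2 and 69.4 (log2 ratio -0.55, -0.60 to -0.49), and Vars2 had 21.5 and 16.01 (-0.42, -0.51 to -0.33). Further mitochondrial genes with a lower level were Sars2 (37.0 and 29.3, -0.33), Nars2 (12.7 and 10.7, -0.25) and Rars2 (62.7 and 54.1, -0.21). Fars2 (20.8 and 17.9, -0.22) was lower except with the GC and length trend removed, where it was 0.0014.

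Several mitochondrial genes had higher levels in E14-Sox2TA/WT cells. Iars2 had a TPM of 72.4 in E14 and 101.4 in E14-Sox2TA/WT cells (8076 and 7574 reads, log2 ratio 0.49, 0.44 to 0.53). It shares 2034 exon bases with Rab3gap2 on the opposite strand, which had a log2 ratio of 0.42, and without strand in the counting their reads cannot be told apart. Wars2 (3.72 and 4.80, 0.37), Yars2 (40.8 and 52.5, 0.36), Hars2 (19.95 and 25.2, 0.34) and Cars2 (32.4 and 37.9, 0.23) were higher under each scaling tried. Mars2 had 10.3 and 13.1 (0.35, 0.21 to 0.49) but -0.30 with the GC and length trend removed. Aars2 (38.5 and 40.0, 0.054), Pars2 for proline (5.79 and 6.02, 0.056) and Ears2 for glutamate (8.29 and 8.77, 0.082) had intervals that included 0.

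Cytosolic and mitochondrial enzymes for the same amino acid often differed in their ratios. There were 17 pairings of a cytosolic with a mitochondrial gene, with Eprs set against both Ears2 and Pars2 and both phenylalanine subunits against Fars2. The cytosolic log2 ratio was the lower in 12 and the higher in 5, and the counting intervals overlapped in 1 (Eprs and Pars2). The pairings with Ears2, Pars2 and Wars2, which lay below the TPM filter, are among the 12. The count was not repeated without them. Separate intervals are common at this depth, where 35.2% of all genes past the filter had an interval wholly below 0 and 50.2% wholly above. The share of separate intervals over other gene pairs was not computed. The median difference was -0.28. It was most negative for cysteine, where Cars was at -0.90 and Cars2 at 0.23, a difference of -1.12. Tyrosine (-0.46 and 0.36) and methionine (-0.44 and 0.35) followed. With the GC and length trend removed, Mars was at -0.31 and Mars2 at -0.30, so the methionine difference was nearly lost. Cysteine (-0.84 and 0.45) and tyrosine (-0.34 and 0.62) stayed apart with that trend removed. In TPM, the order was opposite for leucine (0.065 for Lars and -0.90 for Lars2), valine (0.13 and -0.42), arginine (-0.016 and -0.21) and for both phenylalanine subunits. Threonine, serine and asparagine were the pairings in which the cytosolic and the mitochondrial gene were both lower under each scaling tried.

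**Figure D4:**
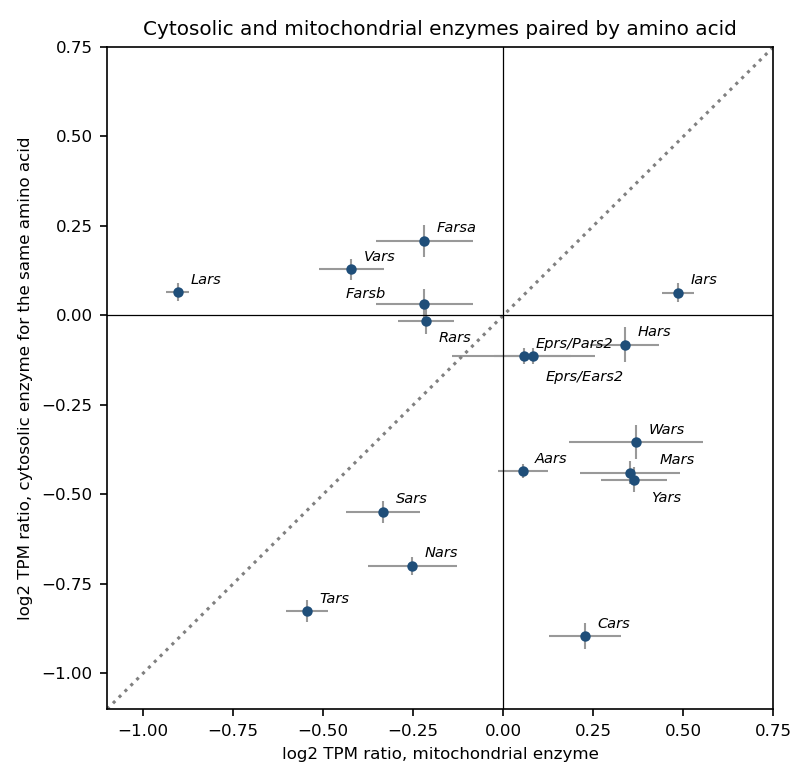
The log2 TPM ratio (E14-Sox2TA/WT over E14) of each cytosolic gene on the vertical axis against that of the mitochondrial gene for the same amino acid on the horizontal axis, with 95% counting intervals and a dotted line of equal ratios. Of 17 pairings 12 lie below the line, Cars farthest, and Lars lies farthest above it.

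Members on chromosome 8 included Kars, Farsa and Cars2, which were higher, and Aars, which was lower. The 547 genes of chromosome 8 past the filter had a median log2 ratio of 0.28, the highest of the chromosomes compared, and the 396 of chromosome 15, where Tars lies, had a median of -0.14, the lowest. The part of these chromosome-wide shifts in the values of the members was not tested. Without the members on these chromosomes the difference between the listed and the other cytosolic genes was -0.42.

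Genes that work beside the synthetases lay on both sides of 0. Of 28 such genes 15 had a lower and 13 a higher TPM in E14-Sox2TA/WT cells, with a median log2 ratio of -0.020, whereas 42.7% of all genes past the filter were lower and their median was 0.085. More than 1.5-fold lower was 1 of them, Pstk, whose kinase acts on seryl-tRNA on the way to selenocysteine (TPM 86.9 and 47.3, log2 ratio -0.88, -0.98 to -0.78), and 1 was more than 1.5-fold higher, Trnt1, which adds the CCA end to tRNAs (56.7 and 87.7, 0.63, 0.57 to 0.69), beside 10.5% and 14.2% of all genes past the filter. Sepsecs, the enzyme that follows Pstk, had 9.74 and 13.95 (0.52). Thus the enzymes of these consecutive steps differed in opposite directions.

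The scaffold genes of the multi-tRNA synthetase complex lay within the range of the enzymes it holds, with log2 ratios of -0.21 for Aimp1, -0.13 for Eef1e1 and 0.25 for Aimp2. Xpot, which exports tRNAs from the nucleus, had a TPM of 91.7 and 92.9 (0.019). Of 4 genes that modify charged mitochondrial tRNAs, the amidotransferase subunits Gatb (0.14) and Gatc (0.13) were slightly higher, with signs that changed with the scaling. The third amidotransferase subunit, Qrsl1 (-0.29), and Mtfmt (-0.40), which formylates the initiator tRNA, were lower. For delivery of charged tRNAs to the ribosome, Eef1a1 had a TPM of 16495 and 15008 (-0.14), Eef1g had a log2 ratio of 0.31, and the mitochondrial factors ran from -0.34 (Tsfm) to 0.36 (Tufm).

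**Figure D5:**
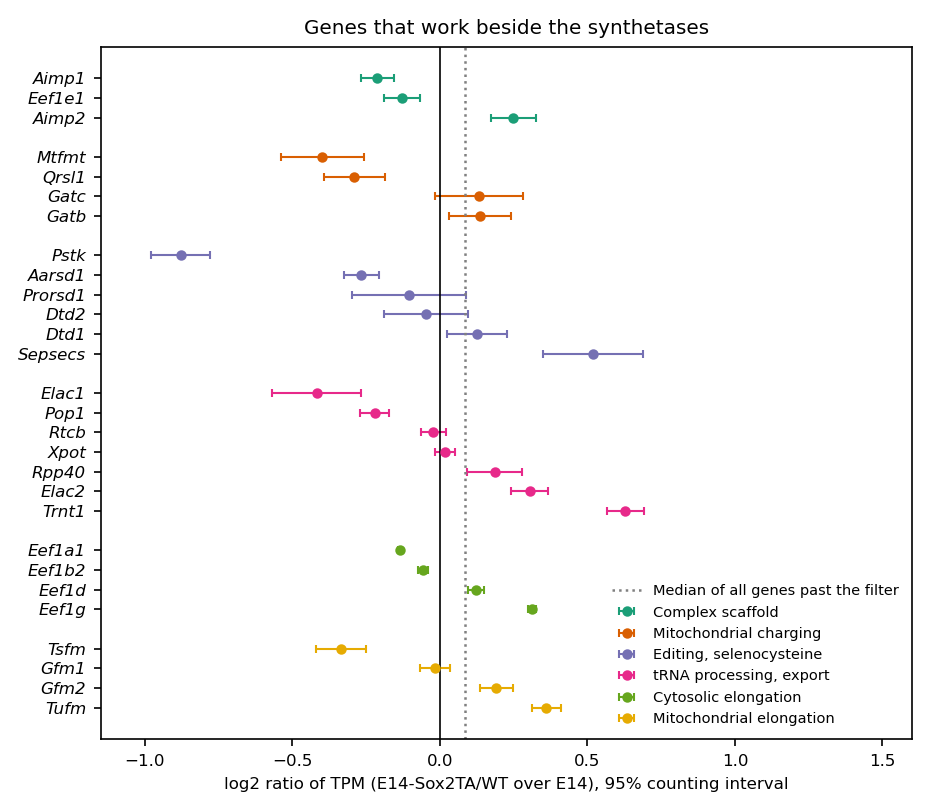
The log2 ratio of TPM (E14-Sox2TA/WT over E14) of 28 genes that act beside the synthetases, with 95% counting intervals, grouped by role, and the median of all genes past the filter as a dotted line. The points scatter on both sides of 0, with Pstk lowest at -0.88 and Trnt1 highest at 0.63.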

How the data were processed

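Polyadenylated RNA was sequenced on an Illumina Nova-Seq instrument, 1 library for E14 and 1 for E14-Sox2TA/WT cells. The authors deposited 1 gene table for mm10 with whole-number read counts that were not normalized, FPKM values that the authors scaled for transcript length and library size, and TPM values scaled to a fixed library sum. The submitters' processing notes list bcl2fastq 2.20.0, Trimmomatic, HISAT2 2.1.0 and StringTie 2.1.3b. The handling of strand and of reads that map to several genes is not given in the sources used here. All value columns were used.

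The log2 ratio of TPM was taken without a pseudocount. Its interval came from the read counts (exact Clopper-Pearson, 95%) and was moved to the TPM scale. It covers counting error alone, because each genotype had 1 library. It can be too narrow even for that, because PCR copies of a molecule are not independent. Genes that reached a TPM of 10 in either library served as background. Alternatives were FPKM, counts scaled by TMM (edgeR 4.0.16) or by size factors (DESeq2 1.42.0), CPM, centring, pseudocounts of 0.1 and 1, filters, removal of a GC and length trend (medians in 20 bins each, GENCODE M21 transcripts for 23977 genes), and removal of the 12 members with an exon overlap or a copy (at least 95% identity over 200 bases). Interval code was tested on simulated data. Members and lists were chosen with earlier results of these data known. Every member and every gene of the lists could be named, except 1 listed gene that is not reported here, as could genes that overlap a member. Promoter sequences are from RefSeq (GRCm38.p6).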

Additional observations from a re-analysis of the deposited data

How the results depend on the processing

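With 1 library per genotype there are no replicates to leave out. No paired analysis was possible for the same reason. The cytosolic minus mitochondrial difference of medians (-0.15) kept its sign under every scaling and was -0.29 with the GC and length trend removed, but it was 0.12 with members at a TPM of at least 10 and 0.015 without members that have a copy or an overlapping gene, while at a mean TPM of at least 20 it was again -0.15, so its direction varied with the members counted. The cytosolic median (-0.097) was -0.24 with FPKM, -0.14 with TMM, -0.24 with CPM, -0.18 with centring and -0.22 with the trend removed. The mitochondrial median (0.055) changed sign to -0.088 with FPKM, -0.075 with CPM, -0.029 with centring, -0.21 at a TPM of at least 10 and -0.080 without copies and overlaps. More than 1.5-fold lower were 5 cytosolic genes with FPKM or CPM (3 in the report), and 9 lay below 80% of the E14 level, the lowest threshold tried. For mitochondrial genes the count was 2 with FPKM, TMM, CPM, centring or the trend removed (1 in the report) and 4 below 80%. With FPKM 2 members (Cars and Lars2) differed more than 2-fold and with CPM 1 did (Cars). At the lowest threshold tried, 19 lay below 80% or above 125% of the E14 level. Shares of all genes were not computed for the other scalings or for the 80% and 125% limits, so these counts have no background. The listed minus other cytosolic difference (-0.52) was -0.61 without copies and overlaps and -0.42 without chromosomes 8 and 15, the latter chosen after seeing the data. Complex minus free enzymes (0.44) gave 0.25 with the trend removed, 0.50 without copies and overlaps and 0.38 without those chromosomes. With each member left out in turn, the compartment difference ran from -0.17 to -0.14, the cytosolic median from -0.11 to -0.081, the mitochondrial median from 0.054 to 0.056, the listed difference from -0.57 to -0.47 and the complex difference from 0.40 to 0.47. The counts past 1.5-fold ran from 2 to 3 and, without Lars2, from 0 to 1, and the count past 2-fold stayed at 0. Depth limits the low mitochondrial genes most.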

Other observations

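Synthetases fall into 2 structural classes with unrelated catalytic folds. The 9 cytosolic class I genes had a median log2 ratio of -0.016, from -0.90 (Cars) to 0.17 (Qars), and the 10 class II genes had a median of -0.23, from -0.83 (Tars) to 0.39 (Kars). Both classes thus held genes at either end, and 5 of 9 and 7 of 10 were lower, beside 42.7% of all genes past the filter. Eprs, which joins a class I and a class II enzyme in 1 protein, was left out of this count.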
